A study of Mus musculus with 12 samples.

Results

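The genes described here belong to 5 families named for enzymes that write or remove histone methylation or remove acetylation, and the measurement is ESRRB binding around them in mouse embryonic stem cells. Chosen by symbol, they include members that act on other proteins or in mitochondria. They are the 52 protein-coding genes whose RefSeq symbol, on the assembly GRCm38.p6 (mm10), is Kdm, Kmt, Setd, Hdac or Sirt followed by a digit. A bound region belongs to one of them when that gene is the nearest protein-coding gene and the centre of the region lies inside the gene or within 50 kb of it. By this rule 264 of the 86201 regions in the deposited count table lay at 49 of the 52 genes. No region (0) lay at Hdac3, Hdac10 or the Y-linked Kdm5d. Assignment is by distance and does not show that a region acts on the gene.

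ESRRB is an orphan nuclear receptor that embryonic stem cells use to sustain self-renewal, and NANOG is a homeodomain factor of the same network. Chromatin immunoprecipitation with an antibody to ESRRB was followed by sequencing (ChIP-seq), with 3 libraries from the cells titled NanogKO:Esrrb (44J) and 3 from those titled NanogKO:Esrrb:Nanog (44JN), called without Nanog and with Nanog from here on. All 12 samples of the series, 6 of them inputs that were not used here, carry the same cell line name, N{delta}:cE:iN, and the cell type ESC. All cells grew untreated in serum with leukaemia inhibitory factor. Chromatin was fixed with formaldehyde, alone or followed by di(N-succinimidyl) glutarate, and the labels do not tie a library to a fixation. Both groups are named as Nanog knockout with Esrrb. How Esrrb and Nanog are supplied, and how many clones were used, was not stated in the labels. Nothing in the labels ties the 3 libraries of a group to 3 cultures, and the p-values therefore cover only the spread between libraries, which may be technical.

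Histone methylation is written by SET domain methyltransferases, here the Kmt and Setd genes, and erased by the Kdm demethylases, which are either flavin-dependent amine oxidases or JmjC dioxygenases. Acetylation is removed by the zinc-dependent Hdac enzymes and by the NAD-dependent sirtuins. Methylation of H3K4 and H3K36 marks active promoters and transcribed genes, and methylation of H3K9, H3K27 and H4K20 marks silent chromatin. In embryonic stem cells these enzymes are known for keeping developmental genes silent but inducible. ESRRB binds an extended form of the nuclear receptor core motif AGGTCA, and co-binding with other pluripotency factors at enhancers is common.

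RefSeq promoter windows on GRCm38.p6, from 250 bases before to 50 bases after a start, were found for 41 of the 52 genes, 57 windows in all. The ERR response element TNAAGGTCA, searched on both strands, was in 0 of the 57 windows, against 219 of 21263 windows of all protein-coding genes (1.03%). The shorter core AGGTCA, which the element contains, was in 7 of 57 (12.3%), against 14.7% of all windows. An ESRRB region overlapped 20 of the windows, at 17 genes, and 3 of these 20 held the core. The 250 bases upstream of a start are shown for 6 genes, in the gene's orientation, with AGGTCA or its reverse complement TGACCT in capitals. Kdm3a and Kdm4a are shown because their regions were the only ones over a promoter window that were called different between the groups. The next sequences, of Sirt3 and Sirt5, lie under the strongest sirtuin regions. Those of Kdm1a and Kmt5a are shown because, with Sirt5, they hold the core under a region. The Kdm3a window lies inside the gene, at an internal start, and its region was chosen after its values were seen, as were Kdm1a and Kmt5a.
Kdm3a, chr6:71609140-71609389, minus strand: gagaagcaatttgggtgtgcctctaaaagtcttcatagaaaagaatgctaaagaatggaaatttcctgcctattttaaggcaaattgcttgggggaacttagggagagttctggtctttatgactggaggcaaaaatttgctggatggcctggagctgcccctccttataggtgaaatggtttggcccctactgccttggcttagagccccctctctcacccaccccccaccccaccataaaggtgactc
Kdm4a, chr4:118180044-118180293, minus strand: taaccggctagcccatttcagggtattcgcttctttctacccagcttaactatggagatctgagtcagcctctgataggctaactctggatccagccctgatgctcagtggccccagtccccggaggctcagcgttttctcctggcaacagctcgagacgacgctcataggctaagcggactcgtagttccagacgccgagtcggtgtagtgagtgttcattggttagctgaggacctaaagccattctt
Sirt3, chr7:140881870-140882119, minus strand: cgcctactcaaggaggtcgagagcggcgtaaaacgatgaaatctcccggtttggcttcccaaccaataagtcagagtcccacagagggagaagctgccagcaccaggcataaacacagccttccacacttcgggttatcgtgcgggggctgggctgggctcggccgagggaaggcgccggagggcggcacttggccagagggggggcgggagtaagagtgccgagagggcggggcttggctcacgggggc
Sirt5, chr13:43365285-43365534, plus strand: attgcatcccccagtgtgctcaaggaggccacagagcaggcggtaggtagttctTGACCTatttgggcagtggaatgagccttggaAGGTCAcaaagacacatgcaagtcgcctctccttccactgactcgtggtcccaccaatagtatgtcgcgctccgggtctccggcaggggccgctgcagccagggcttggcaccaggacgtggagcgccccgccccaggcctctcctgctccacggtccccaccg
Kdm1a, chr4:136602724-136602973, minus strand: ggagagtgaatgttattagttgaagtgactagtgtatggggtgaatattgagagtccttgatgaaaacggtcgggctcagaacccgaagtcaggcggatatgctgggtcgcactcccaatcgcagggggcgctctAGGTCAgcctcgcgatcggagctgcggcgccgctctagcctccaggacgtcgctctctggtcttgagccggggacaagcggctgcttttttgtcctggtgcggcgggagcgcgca
Kmt5a, chr5:124446454-124446703, plus strand: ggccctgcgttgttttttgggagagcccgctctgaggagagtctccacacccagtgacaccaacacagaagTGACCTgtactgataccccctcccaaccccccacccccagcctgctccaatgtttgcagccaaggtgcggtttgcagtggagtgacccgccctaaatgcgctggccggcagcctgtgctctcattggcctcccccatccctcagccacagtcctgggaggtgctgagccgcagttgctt

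Neither called promoter, Kdm3a or Kdm4a, held the core in this stretch, and Sirt5 held it at 2 places, on opposite strands. The stretch covers only part of the Kdm3a region, which is 807 bases wide. The Kdm4a region, 827 bases wide and centred 0.594 kb before the start, overlaps its stretch only at an edge. Most of the sequence of both called regions was therefore not searched. The region over the Kdm3a start held 10.8, 14.3 and 13.1 CPM in libraries A, B and C of the group without Nanog, and 22.5, 20.0 and 23.4 CPM with Nanog. CPM is the share of a library's counts in regions, scaled to a common total and by TMM, and it sums over the whole region, so wider regions hold more. All 3 libraries with Nanog lay above all 3 without, a log2 fold change of 0.77 ± 0.18 (SE; edgeR adjusted p = 0.00281). The region overlapped a deposited peak with Nanog alone. It came into the table through the group where it was high, so its p-value is not independent support. Over the Sirt5 start the libraries held 38.03, 36.7 and 40.6 CPM without Nanog and 36.2, 37.6 and 37.5 CPM with Nanog, and the groups overlapped. The Kmt5a start with the core held 33.2, 28.9 and 19.2 CPM without Nanog and 31.1, 31.0 and 25.5 CPM with Nanog, also overlapping. Signal over the Kdm1a start was low, from 2.94 to 3.93 CPM without Nanog and from 2.93 to 4.48 CPM with Nanog. These matches describe the letters of the windows only, and the called regions away from promoters were not searched, as no genome was used here.

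More regions at these genes were higher with Nanog than lower. Of 263 regions tested, 34 (12.9%) were higher with Nanog, 13 (4.94%) were lower and 216 were not called (quasi-likelihood test of edgeR, threshold 0.05 after Benjamini-Hochberg adjustment over all regions). Over all 84892 regions tested, 9.42% were called higher and 9.78% lower, 19.2% in either direction against 17.9% here. The median log2 fold change was 0.10 at these genes and -0.01 over all regions. Among the calls, 13 increases and 3 decreases of the 263 were at least 2-fold, and over all 84892 regions 3720 increases and 1773 decreases were. All 13 increases, and 3434 of the 3720 over all regions, overlapped a deposited peak of the group with Nanog alone. So did 22 of the 34 higher calls of any size, among them Kdm4a region 4, Kmt2e region 3 and Sirt6 region 4. Such regions came into the table through the group where they were high, so their calls and p-values are not independent support for a rise. The libraries of the groups did not overlap in 86 of the 263 regions (32.7%), 60 of them higher and 26 lower with Nanog, against 33.8% of all regions. Each fold change is measured against the bulk of regions, which would hide a gain or loss of binding shared by all of them. One region, Kdm2b region 8, held too few reads to be tested, with 0 or 1 count in each library without Nanog.

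Calls in both directions depended on single libraries. Leaving out library B without Nanog gave 33 higher and 23 lower regions, and leaving out library B with Nanog gave 21 higher and 4 lower. Without libraries A and C of the group with Nanog there were 24 and 20 higher and 5 and 10 lower regions, and without A and C of the group without Nanog 25 and 21 higher and 7 and 7 lower. The share of calls that were higher was 72.3% with all libraries and from 58.9% to 84.0% with 1 left out, against 49.1% over all regions with all libraries. Libraries without Nanog held 2734338 to 5193707 counts in regions and those with Nanog 6689166 to 8382646. With all libraries thinned to the smallest total, 20 regions were higher and 8 lower, among 213 tested.

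**Figure D1:**
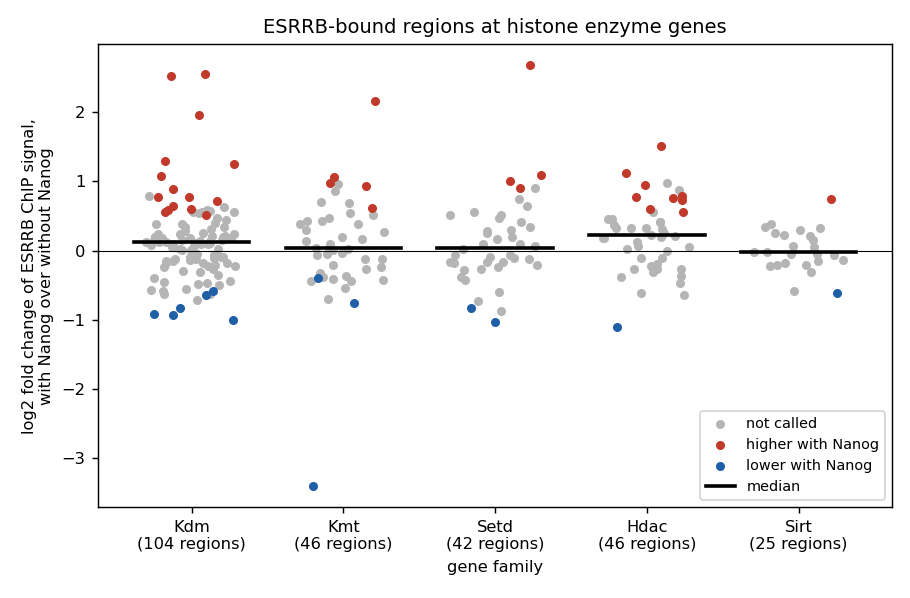
Log2 fold change of ESRRB ChIP signal, with Nanog over without Nanog (vertical axis), for each tested region of the 5 gene families (horizontal axis; points spread sideways at random, bars at the median). Called regions are red (higher) or blue (lower). Higher calls outnumber lower ones in each family but Sirt, which has 1 of each, and the lowest point is Kmt5a region 6 at -3.41.

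The Kdm demethylases held the most regions, 105 at 17 genes, and both kinds of change. Of 104 tested, 15 were higher (14.4%) and 6 lower (5.77%), against 9.42% and 9.78% of all regions. The median log2 fold change was 0.12. Higher calls alone were made at 7 genes, lower calls alone at Kdm7a, both kinds at Kdm2b, Kdm3a and Kdm3b, and none at 6 genes (Kdm2a, Kdm4b, Kdm4d, Kdm5a, Kdm6a and Kdm6b). Regions of a gene are numbered here by coordinate.

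Kdm1a encodes LSD1, the flavin-dependent H3K4 demethylase of the CoREST complex, and 2 of its 5 regions rose. Region 4, inside the gene at chr4:136594139-136594411, held 1.49, 1.12 and 0.392 CPM without Nanog and 4.08, 2.95 and 3.57 CPM with Nanog. The groups did not overlap, and the log2 fold change was 1.96 ± 0.42 (edgeR adjusted p = 0.00118), from 4, 4 and 2 reads without Nanog. The other call, at region 2, the strongest of the gene, was lost with DESeq2 and on leaving out each library except C without Nanog (0.45 to 0.78). Kdm5b, a JmjC demethylase of H3K4, had one of the strongest regions of the family inside the gene at chr1:134569956-134571217. It held 40.6, 45.2 and 46.1 CPM without Nanog and 65.3, 63.9 and 66.4 CPM with Nanog. Every library with Nanog was higher, a log2 fold change of 0.56 ± 0.12 (edgeR adjusted p = 0.00105). Kdm5c, the X-linked paralog, rose at region 7, 27.4 kb outside the gene at chrX:152306221-152306687, from 9.94 ± 1.5 to 18.3 ± 2.3 CPM (SD, n = 3), while its other 6 regions were not called. Among the 5 regions of Kdm5a none was called, with log2 fold changes from -0.63 to 0.55.

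Kdm2b encodes an H3K36 demethylase that brings a Polycomb complex to CpG islands. It had the most regions of all these genes, 14, of which 2 were called higher and 2 lower. Region 7, inside the gene at chr5:122920606-122920953, held 1.86, 1.12 and 0.784 CPM without Nanog and 6.27, 6.96 and 7.39 CPM with Nanog. This was a log2 fold change of 2.56 ± 0.36 (edgeR adjusted p = 7.96e-06), from 5, 4 and 4 reads without Nanog. A few kilobases away, at chr5:122913463-122913662, region 5 held 4.85, 8.98 and 8.24 CPM without Nanog and 2.92, 4.01 and 4.33 CPM with Nanog. All libraries with Nanog were lower there, with a log2 fold change of -0.998 ± 0.27 (edgeR adjusted p = 0.0099). That call was lost without library A with Nanog (log2 fold change -0.85) and without library C without Nanog (-0.90). The other higher call, region 13, was lost with each of the 6 libraries left out (0.56 to 0.74), with DESeq2 and with thinning. The other lower call, region 4, was lost on leaving out each library except B without Nanog (-0.69 to -0.43), with DESeq2, thinning, a loess offset, column totals and upper quartile scaling. The strongest regions of the gene were not called, with 47.6 ± 5.6 and 44.1 ± 4.2 CPM at region 14, 5.7 kb outside, and 41.3 ± 9.5 and 43.4 ± 0.82 CPM at region 10.

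The H3K9 demethylase genes Kdm3a and Kdm3b also held calls of both kinds. Besides its internal start, Kdm3a rose at region 4, inside the gene at chr6:71625896-71626411, where the libraries held 22.7, 15.7 and 25.1 CPM without Nanog and 34.7, 30.2 and 40.8 CPM with Nanog. Region 8, 4.4 kb outside the gene at chr6:71637223-71637535, held 13.0, 5.33 and 9.02 CPM without Nanog and 4.23, 3.77 and 6.12 CPM with Nanog. It was called lower although the groups overlapped (log2 fold change -0.92 ± 0.28, edgeR adjusted p = 0.0202), and the call was lost in 4 of 6 fits with 1 library left out, all but those without B without Nanog and without C with Nanog (-1.16 to -0.64), and with thinning. Kdm3b rose at region 2, inside the gene at chr18:34778449-34779030, from 8.58, 8.98 and 7.65 CPM without Nanog to 19.7, 24.6 and 16.7 CPM with Nanog. No library overlapped, and the log2 fold change was 1.29 ± 0.21 (edgeR adjusted p = 4.93e-05). Its lower call, at region 4, was lost with DESeq2, limma-voom and thinning, without A (-0.83) or B (-0.76) with Nanog and without A (-0.71) or C (-0.79) without Nanog. The strongest region of Kdm3b, region 5, held 54.1, 43.5 and 67.5 CPM without Nanog and 51.0, 51.4 and 51.7 CPM with Nanog, and was not called.

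Kdm4a and Kdm4c encode demethylases of H3K9 and H3K36. Kdm4a region 4, centred 0.55 kb outside the gene at chr4:118180224-118181050, was the only called region within 1 kb of an end of any of these genes. It held 24.2, 24.96 and 18.4 CPM without Nanog and 29.9, 36.1 and 28.7 CPM with Nanog. All libraries with Nanog were higher (log2 fold change 0.51 ± 0.16, edgeR adjusted p = 0.0239), but the call was lost without library B with Nanog (0.40) and without library C without Nanog (0.37), and with DESeq2. Kdm4c region 13, 1.1 kb outside the gene at chr4:74406866-74407114, rose from 1.12, 1.12 and 0.588 CPM to 4.52, 6.01 and 4.97 CPM, the only call among 13 regions. Its log2 fold change was 2.53 ± 0.39 (edgeR adjusted p = 2.85e-05), from 3, 4 and 3 reads without Nanog. Kdm6a and Kdm6b, which encode H3K27 demethylases, had 3 and 5 regions and no call, with log2 fold changes from -0.15 to 0.56.

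Kdm7a, a JmjC demethylase gene, held the lower call of smallest adjusted p in the family. Region 2, 3.9 kb outside the gene at chr6:39132381-39133101, held 60.03, 52.4 and 62.4 CPM without Nanog and 31.8, 31.1 and 35.9 CPM with Nanog. The groups were far apart, with a log2 fold change of -0.82 ± 0.13 (edgeR adjusted p = 2.76e-05), and the other 7 regions of the gene were not called. Kdm8, a JmjC gene, rose at 2 of 6 regions that lie close together, 28.1 and 26.9 kb outside the gene. The first of them held 17.5, 24.96 and 18.8 CPM without Nanog and 28.4, 36.4 and 28.0 CPM with Nanog (log2 fold change 0.60 ± 0.17, edgeR adjusted p = 0.0105). This call was lost without library B with Nanog (0.46), without library A without Nanog (0.53) and without library C without Nanog (0.54). The other was lost without B (0.58) or C (0.79) with Nanog, without C without Nanog (0.56), and with DESeq2 and thinning.

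The Kmt methyltransferases held 46 regions at 8 genes, 5 higher (10.9%) and 3 lower (6.52%), against 9.42% and 9.78% of all regions. Their median log2 fold change was 0.03. Kmt2e encodes a relative of the H3K4 methyltransferases that reads this mark. It had 13 regions, the most of the family, with 3 higher calls outside the gene and 1 lower call inside it. Region 2, 31.4 kb outside the gene at chr5:23401205-23402165, held 3.73, 4.49 and 6.86 CPM without Nanog and 22.2, 25.5 and 23.8 CPM with Nanog. This was the smallest adjusted p of all 263 regions (edgeR adjusted p = 3.79e-08), with a log2 fold change of 2.17 ± 0.22. Region 3, 24.9 kb outside, rose from 7.46, 13.7 and 6.47 CPM to 14.0, 20.3 and 17.6 CPM (0.93 ± 0.23, edgeR adjusted p = 0.00494), a call lost without library C without Nanog (0.68). Region 12, inside the gene, fell from 8.20, 7.01 and 8.24 CPM to 4.23, 4.72 and 4.84 CPM (-0.76 ± 0.25, edgeR adjusted p = 0.0289), a call that held only when library B without Nanog was the one left out (-0.82 to -0.70 over the 6 fits) and was lost with DESeq2 and thinning. At the gene end, by contrast, the strongest region of Kmt2e held 52.1 ± 3.3 CPM without and 50.7 ± 8.9 CPM with Nanog and was not called.

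Kmt2c and Kmt2b encode H3K4 methyltransferases of enhancers and promoters. Kmt2c region 1, inside the gene at chr5:25275397-25276060, held 22.0, 22.2 and 13.1 CPM without Nanog and 33.0, 41.2 and 35.4 CPM with Nanog. All libraries with Nanog were higher, by a log2 fold change of 0.98 ± 0.17 (edgeR adjusted p = 0.000161). The single region of Kmt2b rose from 1.96 ± 0.74 to 4.07 ± 0.61 CPM, a call lost without libraries B or C with Nanog and without A or C without Nanog (0.88 to 1.08 in those fits), and with thinning. Kmt2a and Kmt2d, their paralogs, had 7 and 4 regions with no call.

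The H4K20 methyltransferase genes held the largest change and 2 of the strongest regions. Kmt5a region 6, inside the gene at chr5:124454112-124454393, held 12.7, 11.8 and 6.28 CPM without Nanog and 1.02, 1.18 and 0.51 CPM with Nanog. It was the only one of the 264 regions found in the peak list without Nanog alone, with 34, 42 and 32 reads without and 7, 10 and 4 reads with Nanog. Over all regions found in that list alone, 536 of 674 tested (79.5%) were called lower and 0 higher, so the listing itself favours a lower call. The log2 fold change of Kmt5a region 6, -3.41 ± 0.35 (edgeR adjusted p = 5.25e-08), was the largest in size at these genes, while the other 5 regions of Kmt5a were not called. Kmt5c region 5, inside the gene at chr7:4741027-4741746, held 78.3, 54.4 and 61.6 CPM without Nanog and 52.2, 45.5 and 49.4 CPM with Nanog. It was called lower (-0.39 ± 0.13, edgeR adjusted p = 0.0298), but not with DESeq2, thinning, a loess offset, column totals or upper quartile scaling, and of the 6 fits with 1 library left out it held only without B of the group without Nanog (-0.48 to -0.24). Kmt5b region 5, 5.9 kb outside the gene, held 51.5, 63.1 and 66.9 CPM without Nanog and 58.8, 62.3 and 65.6 CPM with Nanog and was not called.

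The Setd genes held 42 regions at 8 genes, 4 higher (9.52%) and 2 lower (4.76%), against 9.42% and 9.78% of all regions. Their median log2 fold change was 0.04. Setd1b encodes an H3K4 methyltransferase of COMPASS and, with Setd2, had the most regions of the family, 9. Setd1b region 4, inside the gene at chr5:123158084-123158357, held 1.86, 0.561 and 0.784 CPM without Nanog and 3.94, 7.43 and 7.52 CPM with Nanog. The groups did not overlap (2.68 ± 0.42, edgeR adjusted p = 3.16e-05), though only 5, 2 and 4 reads lay there without Nanog. Region 5, the next along the gene, rose from 5.22, 1.96 and 2.94 CPM to 7.14, 6.37 and 7.14 CPM (1.10 ± 0.30, edgeR adjusted p = 0.00995), and this call was lost with thinning and without library C without Nanog (1.02). The strongest region of Setd1b, region 1, held 32.0 CPM without and 24.7 CPM with Nanog and was not called. Summed over its regions, the gene held 111 CPM in each group (log2 fold change 0.002, not called). Setd2, which encodes the enzyme of H3K36 trimethylation, had 1 higher call among 9 regions, lost with DESeq2 and on leaving out each library except B without Nanog (0.85 to 0.95).

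Setd7, a lysine monomethyltransferase gene, rose at region 8, 29.7 kb outside, from 2.61, 6.17 and 5.29 CPM to 7.58, 10.0 and 11.8 CPM (1.01 ± 0.27, edgeR adjusted p = 0.00838). This call was lost without library C with Nanog (0.86) and without library A without Nanog (0.80). Setd5 fell at region 1, 1.1 kb outside the gene at chr6:113075991-113076344, where the libraries held 31.3, 17.4 and 12.2 CPM without Nanog and 12.1, 6.37 and 10.1 CPM with Nanog. The libraries without Nanog were widely spread (-1.04 ± 0.26, edgeR adjusted p = 0.00452), and the call was lost without library A of that group (-0.61) and with DESeq2. Setd3, which encodes an actin histidine methyltransferase, fell 30.8 kb outside the gene from 16.8, 9.26 and 16.3 CPM to 7.73, 7.08 and 8.92 CPM (-0.83 ± 0.23, edgeR adjusted p = 0.00892). That call was lost without library B with Nanog (-0.76), without libraries A (-0.72) or C (-0.67) without Nanog, and with thinning. The strongest regions of the family, Setd7 region 2 with 37.1 ± 3.3 and 31.9 ± 2.1 CPM and Setd4 region 2 with 29.7 ± 5.2 and 27.9 ± 6.1 CPM, were not called.

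The Hdac genes had the largest median of the 5 families, 0.22, with 9 of 46 regions higher and 1 lower, at 9 genes. Hdac2 encodes a class I deacetylase of the NuRD, SIN3 and CoREST complexes, and 3 of its 11 regions rose. The strongest of these, region 3, lay 38.1 kb outside the gene at chr10:36935741-36936620 and held 14.9, 15.7 and 14.9 CPM without Nanog and 31.1, 29.7 and 27.4 CPM with Nanog. The libraries of each group lay close together, and the log2 fold change was 0.95 ± 0.16 (edgeR adjusted p = 9.73e-05). The other 2 calls of Hdac2 did not hold: region 2 was lost with DESeq2, with thinning and in 4 of 6 fits with a library left out, all but those without A with Nanog and without B without Nanog (0.56 to 1.03). Region 5 was lost with DESeq2 and on leaving out each library except A without Nanog (0.55 to 0.70). Hdac1, its close paralog, had 6 regions with no call and log2 fold changes from -0.36 to 0.32. Hdac8, an X-linked class I gene, held the only lower call, inside the gene at chrX:102395981-102396206. Its libraries held 3.36, 7.57 and 8.43 CPM without Nanog and 3.94, 2.48 and 3.19 CPM with Nanog, so the groups overlapped (-1.10 ± 0.30, edgeR adjusted p = 0.00917). That call was lost without library B with Nanog (-0.93) and without library C without Nanog (-0.84). The strongest region of Hdac8 held 35.0 ± 7.1 and 29.7 ± 4.1 CPM and was not called.

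All 4 class IIa genes, whose products shuttle between nucleus and cytoplasm, held higher calls and no lower call. Hdac4, Hdac5, Hdac7 and Hdac9 had 3, 1, 1 and 1 higher regions of 12, 7, 2 and 3, a grouping made after their values were seen, where 9.42% of all regions were called higher. Hdac4 region 7, inside the gene at chr1:92119323-92119987, was the strongest of the family, with 25.7, 26.6 and 29.6 CPM without Nanog and 38.3, 40.8 and 42.0 CPM with Nanog. All libraries with Nanog were higher (0.55 ± 0.14, edgeR adjusted p = 0.00455). Hdac7 region 2, inside the gene at chr15:97829419-97830040, rose from 13.0, 11.2 and 12.6 CPM to 19.5, 23.5 and 18.0 CPM (0.73 ± 0.19, edgeR adjusted p = 0.00558), a call lost without library B with Nanog (0.61). The call at Hdac9 was lost without library C with Nanog (0.59) and without B without Nanog (0.55). That at Hdac5 was lost with a loess offset, without B (1.46) or C (1.47) with Nanog and without A without Nanog (1.14). Hdac4 region 9 lost its call without A (1.07) or C (1.14) with Nanog and without A without Nanog (0.88). Hdac4 region 10 lost it with DESeq2, limma-voom and thinning, without A (0.78) or C (0.55) with Nanog and without C without Nanog (0.53). Of the 6 higher calls at these genes, that of Hdac4 region 7 alone held in every alternative. Hdac6 and Hdac11 had 1 region each, not called.

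The sirtuin genes had the smallest share of calls of the 5 families, with 1 higher and 1 lower call (4% each) among 25 regions at 7 genes. Over all regions 9.42% were higher and 9.78% lower, and the ranking of the family rests on few calls. Its median log2 fold change was -0.03. Sirt3 and Sirt5, which encode mitochondrial deacylases, held their strongest regions at the gene start. Over the Sirt3 start, at chr7:140880787-140882592, the libraries held 90.2, 78.0 and 71.6 CPM without Nanog and 63.3, 63.8 and 66.0 CPM with Nanog. This was the highest signal of all 264 regions, and it was not called although the groups did not overlap (-0.30 ± 0.11, edgeR adjusted p = 0.0566). It was called lower with a block by column letter, among regions with a mean count of at least 50, and without libraries B (-0.30) or C (-0.37) of the group without Nanog. Sirt5 region 5, inside the gene at chr13:43369894-43370366, fell from 16.8, 18.8 and 17.1 CPM to 10.5, 10.0 and 14.0 CPM (-0.61 ± 0.19, edgeR adjusted p = 0.0252). The call was lost without libraries A (-0.54) or B (-0.51) with Nanog and without library C without Nanog (-0.62), and with DESeq2 and thinning. Sirt6, a chromatin-bound deacetylase gene, rose inside the gene at chr10:81623386-81623718 from 5.97, 4.49 and 4.71 CPM to 8.31, 9.67 and 6.88 CPM (0.74 ± 0.26, edgeR adjusted p = 0.0417), a call lost in 4 of 6 fits with a library left out, all but those without C with Nanog and without A without Nanog (0.61 to 0.86), and with DESeq2 and thinning. Sirt5 and Sirt6 had the most regions of the family, 5 each, and Sirt1, Sirt2, Sirt4 and Sirt7 had no call.

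In 15 of the 47 called regions the call held in every alternative that tested the region, 13 of them higher and 2 lower with Nanog, at 14 genes. These regions were singled out after the alternatives had been run. In the other 32 the call was lost in at least 1 alternative, and all 47 kept their sign. Among the 15, those at Kdm1a, Kdm2b, Kdm3b, Kdm4c, Kmt2e and Setd1b overlapped a peak with Nanog alone. Kdm3a region 3 did so too, and Kmt5a region 6 overlapped a peak without Nanog alone. All of these came into the table through the group where they were high, which refitting the same counts cannot undo. The plot of single libraries for these 15 regions shows no overlap between the groups, which the choice by stable calls favours. Over all regions tested, the libraries did not overlap in 33.8%. How many calls over all regions held in every alternative was not worked out. In these 15 regions the signal with Nanog ranged from 0.90 ± 0.35 CPM at Kmt5a region 6 to 65.2 ± 1.2 CPM at Kdm5b region 4. Not all of them faced every alternative: of 17, 14 tested Kdm1a region 4 and 15 tested Kdm4c region 13. Kdm2b region 7, Setd1b region 4, Kmt5a region 6 and Kdm5c region 7 were tested in 16.

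**Figure D2:**
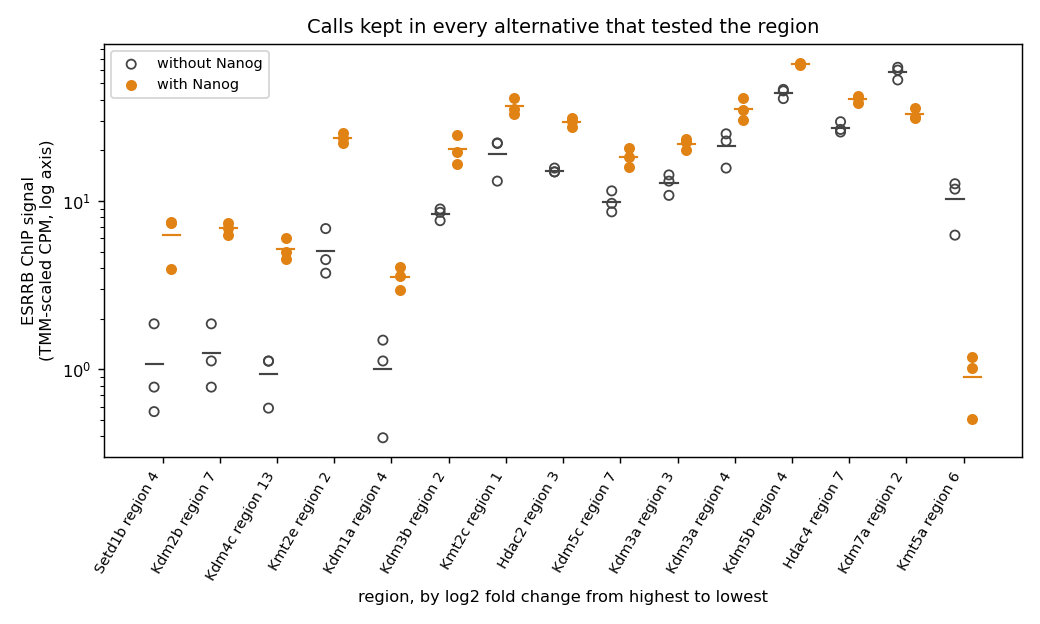
ESRRB ChIP signal (TMM-scaled CPM, log axis) in each of the 3 libraries without Nanog (open circles) and 3 with Nanog (filled circles). Shown are the 15 regions whose call held in every alternative that tested the region, with bars at the group means. Regions run from the highest log2 fold change (Setd1b region 4, 2.68) to the lowest (Kmt5a region 6, -3.41). The groups do not overlap, which the choice of these regions favours. Kmt5a region 6 and several of the higher regions were in the peak list of a single group, that where they are high.

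Several genes held changes at more than one place. Kmt2e gained signal at 3 regions between 16.7 and 31.4 kb outside the gene and lost it at 1 region inside, but only the call at 31.4 kb held with each library left out. The call at 16.7 kb was lost with thinning, without A (0.59) or C (0.59) with Nanog and without C without Nanog (0.58). Kdm3a gained signal at 2 regions inside the gene and lost it at 2 outside, 4.4 and 23.9 kb away. Both gains held with each library left out and neither loss did: the call at 23.9 kb was lost with DESeq2, without A (-0.55) or B (-0.52) with Nanog and without A (-0.64) or C (-0.62) without Nanog. At Hdac2 the 3 higher regions lay 19.1, 38.1 and 40.1 kb outside, all on one side, and no region within the gene was called, but only the call at 38.1 kb held with each library left out.

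**Figure D3:**
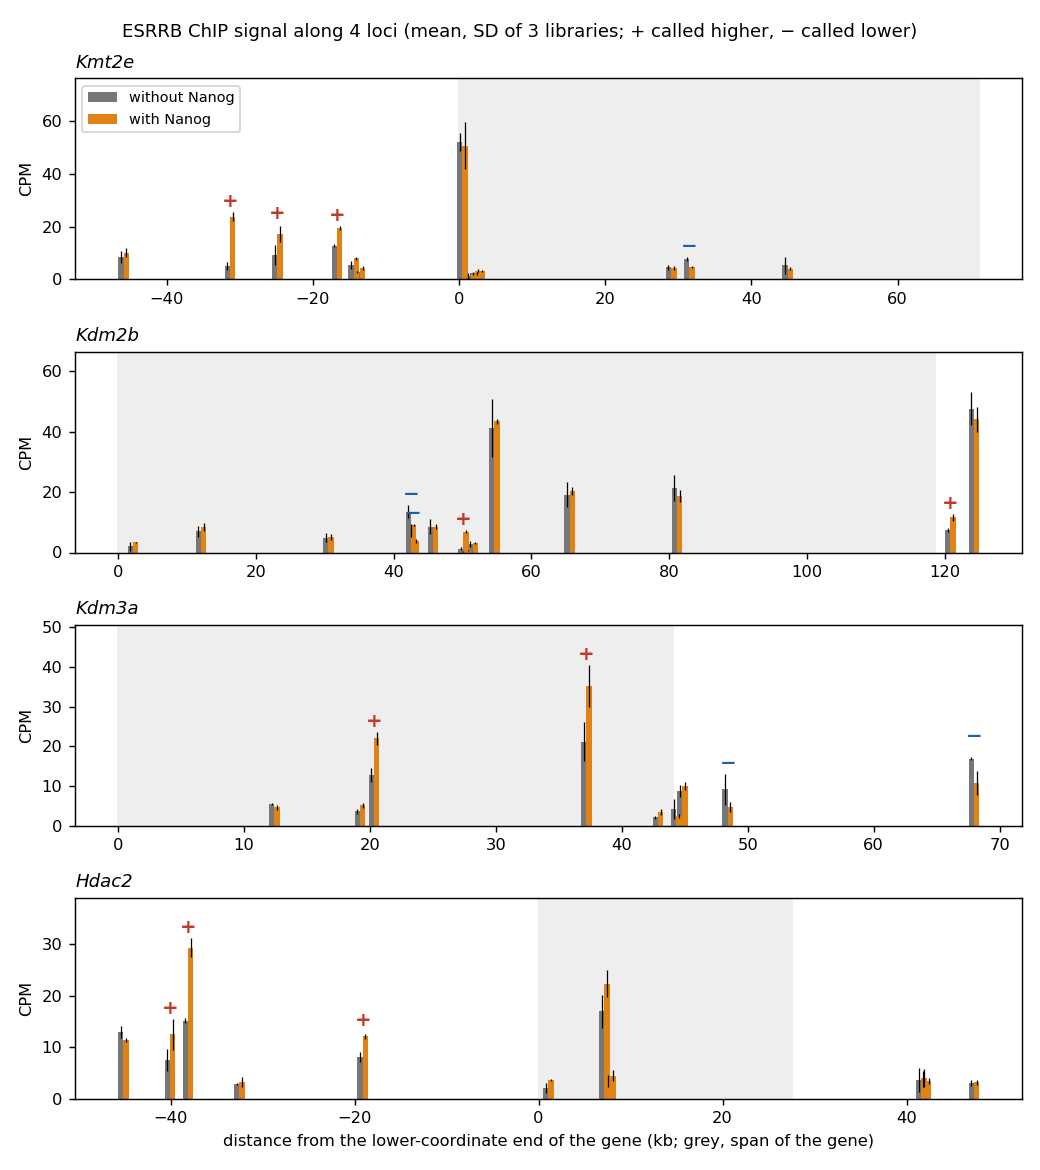
Mean ESRRB ChIP signal (CPM, TMM-scaled; error bars, SD of 3 libraries) without Nanog (grey) and with Nanog (orange) at each region of Kmt2e, Kdm2b, Kdm3a and Hdac2, by distance from the lower-coordinate end of the gene in kb. Shaded areas are the genes; plus and minus signs mark called regions, and at Kmt2e the strongest region, at the gene end, carries none.

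Summing the counts over all regions of a gene asks whether the gene as a whole held more or less signal. Of 49 genes tested, 10 were higher with Nanog and 3 lower, against 11.1% higher and 12.5% lower among 15893 genes tested in all. The median log2 fold change of the sums was 0.05, and -0.01 over all genes. Here CPM is relative to the counts in regions within 50 kb of a gene. The higher genes were Kdm1a, Kdm4a, Kdm5b, Kdm8, Kmt2b, Kmt2c, Kmt2e, Hdac2, Hdac4 and Hdac7, and the lower ones Kdm7a, Kmt5c and Sirt3.

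Kmt2c went from 48.6, 45.3 and 38.1 CPM without Nanog to 64.8, 74.2 and 65.6 CPM with Nanog, a log2 fold change of the sum of 0.65 ± 0.12 (edgeR adjusted p = 0.000409). Hdac2 went from 88.7, 108 and 83.7 CPM to 127, 138 and 127 CPM (0.49 ± 0.10, edgeR adjusted p = 0.000856). Kdm7a went the other way, from 176, 158 and 181 CPM to 123, 128 and 140 CPM (-0.40 ± 0.08, edgeR adjusted p = 0.00129). The calls of these 3 genes held in all 12 alternatives for sums, and none of them had overlapping groups. Kmt2e, at 141, 141 and 137 CPM without and 191, 176 and 187 CPM with Nanog (0.40 ± 0.07), and Kdm8, at 63.0 ± 9.9 and 85.7 ± 7.1 CPM (0.45 ± 0.11), held on leaving out each library. With regions within 10 kb only, these sums were at -0.06 for Kmt2e and 0.03 for Kdm8 and neither was called. Leaving out the regions farther than 10 kb thus ended both calls.

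The other 8 calls were each lost on leaving out some libraries. Without libraries B or C with Nanog 6 genes were higher in each case, and without B with Nanog or A without Nanog 1 gene was lower. Kmt2b had a log2 fold change of 1.09 ± 0.33, from the single low region of the gene (0.90 to 1.43 with 1 library left out), lost without B or C with Nanog, without A or C without Nanog and with DESeq2. Hdac7 was at 0.53 ± 0.15 (0.41 without B with Nanog and 0.47 without C without Nanog, both lost), and Hdac4 at 0.34 ± 0.09 (0.28 without C with Nanog and 0.29 without A without Nanog, both lost). Kdm1a, at 0.41 ± 0.14, was lost on leaving out any library but C without Nanog (0.28 to 0.54) and with DESeq2. Kdm4a, at 0.42 ± 0.12, was lost without B with Nanog and without A or C without Nanog (0.33 to 0.39 in those fits). Kdm5b was at 0.24 ± 0.08, lost without B or C with Nanog and without C without Nanog (0.22 to 0.23). Kmt5c was at -0.29 ± 0.10, lost without B or C with Nanog and without A without Nanog (-0.29 to -0.20), and with DESeq2. Sirt3 was at -0.31 ± 0.09, lost without A or B with Nanog and without A without Nanog (-0.31 to -0.25).

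**Figure D4:**
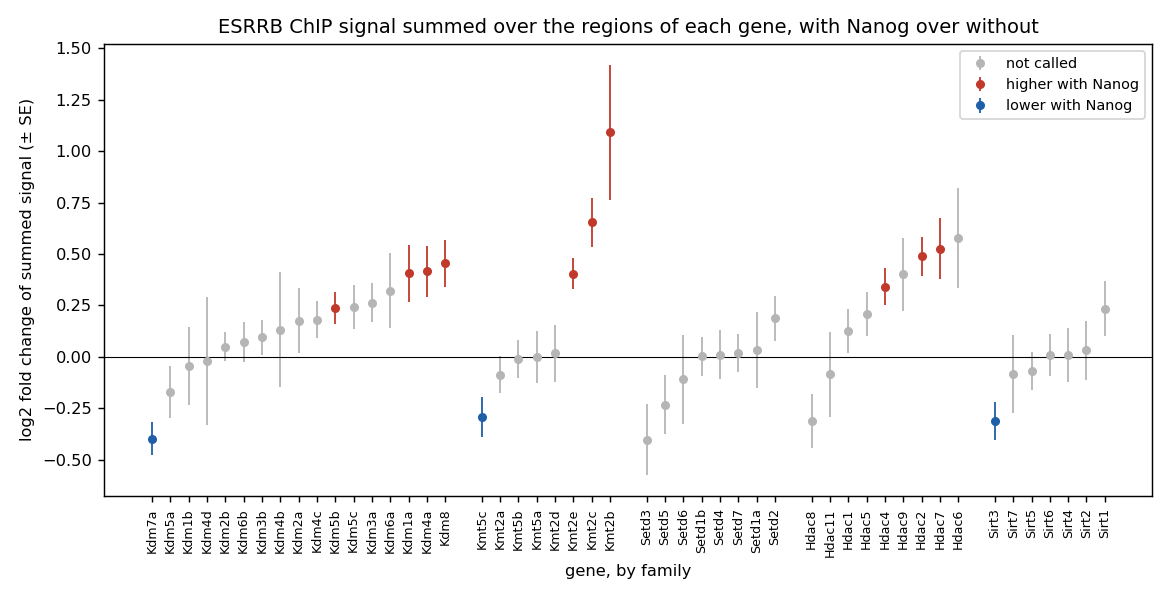
Log2 fold change of the summed ESRRB ChIP signal, with Nanog over without Nanog (vertical axis; bars, SE of the edgeR fit), for the 49 genes with a region, by family and then by value. Red marks the 10 genes called higher and blue the 3 called lower (Kdm7a, Kmt5c and Sirt3); the Setd genes hold no call.

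Changes lay away from gene ends. The centre of 42 regions (15.9%) was within 1 kb of an end of the gene, 157 (59.5%) lay farther inside and 65 (24.6%) outside, against 15.4%, 52.0% and 32.6% of all regions within 50 kb of a gene. At gene ends 1 of 42 regions was called (2.38%), against 8.55% for all genes. Farther inside the genes 21 of 156 were higher and 8 lower (18.6% called, and 19.5% for all genes). Outside, 12 of 65 were higher and 5 lower (26.2% called, and 21.3% for all genes). No test was made of these shares, since regions are not replicates.

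**Figure D5:**
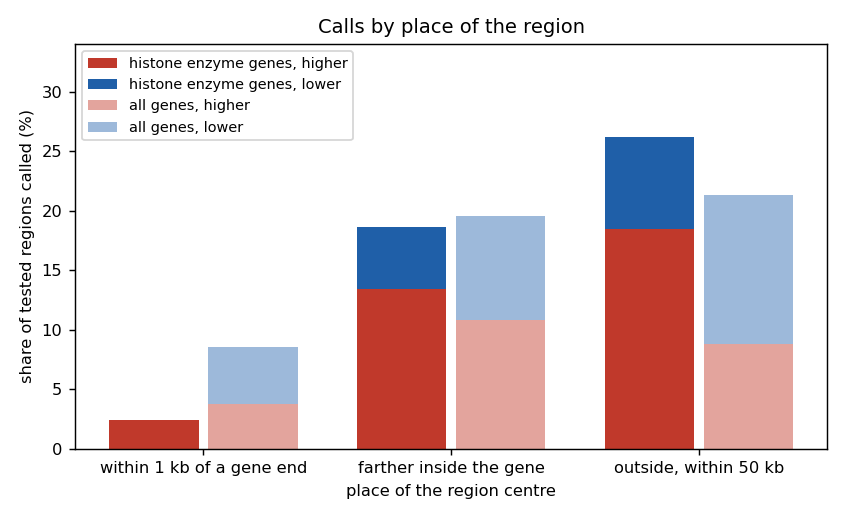
Share of tested regions called higher (red) or lower (blue) with Nanog, in percent, by place of the region centre, for the histone enzyme genes (dark) and all genes (light). The share called is lowest within 1 kb of a gene end in both sets, 2.38% and 8.55%.

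ESRRB regions were common at these genes. A region lay at 94.2% of them, against 72.7% of all protein-coding genes, with a median of 5 and 3 regions per gene that had one. The rule takes in every region inside a gene, and these figures were not adjusted for gene length. Median signal was near that of all regions, with 6.53 CPM without and 6.75 CPM with Nanog here and 6.70 and 6.48 CPM over all. In the deposited peak lists 92 of the 264 regions (34.8%) overlapped a peak of both groups, 171 (64.8%) one with Nanog alone and 1 without Nanog alone, against 37.8%, 61.4% and 0.806% of all regions. Regions in both lists had 12 higher (13.0%) and 9 lower (9.78%) calls, against 7.40% and 20.8% of all regions in both lists. Those listed with Nanog alone had 22 higher (12.9%) and 3 lower (1.76%), against 10.8% and 1.92%. The lists come from the same libraries as the counts, 1 list per group, so they are not independent of the calls.

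Other genes of the pathway, in 5 lists by symbol, went mostly both ways. Over all regions tested, 9.42% were called higher and 9.78% lower. Histone acetyltransferase genes, the opponents of the deacetylases, held 97 regions at 11 of 12 genes. Of these 13 were higher (13.4%) and 7 lower (7.22%), with a median log2 fold change of 0.15. Kat6b, a MYST family acetyltransferase gene, held 9 of those higher calls and 1 lower among 26 regions, a count noticed after the fit. Its region 13.2 kb outside went from 16.8, 15.99 and 18.2 CPM to 44.5, 44.1 and 48.4 CPM (1.42 ± 0.15, edgeR adjusted p = 5.73e-08). Kat8, the H4K16 acetyltransferase gene, fell at its only region, at the gene end, from 38.8, 28.9 and 38.4 CPM to 11.2, 6.13 and 7.52 CPM (-2.11 ± 0.20, edgeR adjusted p = 8.56e-09). Both differences were larger than the spread of the libraries.

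Corepressor subunit genes, partners of the Hdac enzymes, held 171 regions at 22 of 23 genes. Of 166 tested, 9 were higher (5.42%) and 14 lower (8.43%), with a median of 0.02. Rcor2, a CoREST subunit gene, rose 5.5 kb outside the gene from 13.9 ± 0.80 to 29.9 ± 4.4 CPM (edgeR adjusted p = 2.99e-05). Mta3, a NuRD subunit gene, fell 15.1 kb outside from 72.7 ± 4.9 to 31.7 ± 2.1 CPM (edgeR adjusted p = 4.15e-08), and over its 20 regions had 3 higher and 3 lower calls. COMPASS subunit genes, partners of the Kmt2 and Setd1 enzymes, held 57 regions at all 12 genes. Of 56 tested, 6 were higher (10.7%) and 3 lower (5.36%), with a median of -0.01. Paxip1 rose 22.8 kb outside from 15.6 ± 1.1 to 31.8 ± 4.7 CPM (edgeR adjusted p = 5.37e-05), and Ncoa6 fell inside the gene from 5.39 ± 1.0 to 2.58 ± 0.47 CPM (edgeR adjusted p = 0.00687). The call at Ncoa6 was lost with thinning, without B with Nanog and without C without Nanog (log2 fold changes from -1.225 to -0.899 over the 6 fits).

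The other lysine methyltransferases and demethylases held 126 regions at 21 of 24 genes. Of 125 tested, 12 were higher (9.6%) and 7 lower (5.6%), with a median of 0.16. Setmar rose at 1 of its 2 regions, inside the gene, from 7.07 ± 1.1 to 24.3 ± 3.0 CPM (edgeR adjusted p = 3.67e-07), and its other region was called lower. Smyd2 fell inside the gene from 19.2 ± 1.6 to 9.60 ± 0.99 CPM (edgeR adjusted p = 0.000324). Arginine methyltransferase genes held 48 regions at 8 of 9 genes, with 4 higher (8.33%), 3 lower (6.25%) and a median of 0.17. Prmt8 rose 25.7 kb outside the gene from 6.59 ± 0.58 to 37.0 ± 5.3 CPM (edgeR adjusted p = 3.09e-10). Prmt9 fell 10.9 kb outside from 64.6 ± 0.23 to 43.8 ± 1.5 CPM (edgeR adjusted p = 0.000871), and held all 3 lower calls of that list.

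The limit of 50 kb decides some members. The farthest regions inside it, at 45.1 kb from Hdac2 and 45.9 kb from Kmt2e, had log2 fold changes of -0.19 and 0.27 and no call. Just outside it lay a region 50.4 kb from Hdac2, with 18.998 and 31.6 CPM (log2 fold change 0.72, called higher), and one 52.1 kb from Hdac4, with 3.44 and 3.51 CPM (-0.03, not called). Strongest regions of the pluripotency genes Esrrb, Nanog, Klf4, Tfcp2l1 and Pou5f1 ranked at the 97.2 percentile of signal or above. This does not set them apart, as the strongest regions of Sirt3 and Kmt5b ranked at the 98.9 and 98.3 percentiles. The ranking therefore does not by itself check the antibody, the cell type or the Nanog labels.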

How the data were processed

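ESRRB ChIP-seq counts were compared between 3 libraries without and 3 with Nanog. Per the submitters' processing notes, the tools were bcl2fastq 2.19.1, Bowtie2, SAMtools 1.4.1, deepTools, MACS2 and bedtools 2.26.0, with mm10. The order of these tools, their settings, the read counter and the handling of duplicates were not stated there. The authors deposited whole-number read counts per region, not normalised. The columns are lettered A to C while the titles are numbered, which places a column in its group and in no single sample. The table has no input column, so the 6 inputs were not used, and background signal was not subtracted.

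Counts of all 86201 regions were fitted with edgeR 4.0.16 in R 4.3.3 (filterByExpr, TMM, glmQLFit and glmQLFTest, the group alone as covariate), with Benjamini-Hochberg adjustment over 84892 regions and a threshold of 0.05, and likewise for sums per gene. CPM is TMM-scaled, and log-CPM for ranking signal has a prior count of 2. A nearest gene at equal distance was given to the shorter gene, which touched 0 of the 264 regions. The fits were tested on simulated data. No pair of libraries was a duplicate (chi-square per degree of freedom 1.33 to 2.53). Depth was 2734338 to 8382646 counts in regions, so low regions without Nanog rest on few reads.

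Members and lists were chosen with earlier results of these data known. Named by rule were, per family, up to 3 called regions in each direction by adjusted p, the 2 genes with the strongest region and the gene with the most regions, then called regions within 1 kb of a gene end, genes called on sums, and per list the best call in each direction. Other regions printed were chosen after their values were seen. As alternatives, the fit was repeated with DESeq2 1.42.0, limma-voom (limma 3.58.1), other scalings and filters, a loess offset, thinning, autosomes, a block by letter, left-out libraries, other distances and another peak overlap. Coordinates are 1-based on mm10.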

Additional observations from a re-analysis of the deposited data

How the results depend on the processing

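With all 6 libraries 34 regions were higher and 13 lower. DESeq2 gave 18 and 6 among 219 tested, thinning to the smallest total 20 and 8, a minimum mean count of 50 gave 20 higher (21.1%) and 9 lower (9.47%) of the 95 regions it tested, and counting only regions inside the gene gave 21 and 8. With each library left out in turn, between 20 and 33 were higher and between 4 and 23 lower. Over all regions, DESeq2 called 4786 higher and 5437 lower, the minimum mean count 4978 and 5503, thinning 5085 and 4798, and the fits with a library left out between 4988 and 9288 higher and between 4780 and 8971 lower. On gene sums, those fits had between 6 and 9 higher and between 1 and 4 lower. A block by column letter gave 36 higher (13.7%) and 20 lower (7.6%) regions and 5 lower gene sums. Over all regions the block gave 10095 higher (11.9%) and 10825 lower (12.8%). With the block 64.3% of the calls at these genes were higher, against 48.3% over all regions. The letters were not taken as pairs, since no label says what they mark. The deviations of like-lettered libraries correlated at 0.08, 0.22 and 0.12, above all unlike-lettered pairs across groups, which lay between -0.15 and 0.04. Whether a letter marks a shared batch was not tested. Signs turned in a few regions that were not called. Over the fits with a library left out, the log2 fold change lay from -0.251 to 0.097 at Kdm3b region 5, from -0.054 to 0.123 at Kmt5b region 5, from -0.302 to 0.060 at Setd4 region 2 and from -0.080 to 0.002 at Sirt5 region 1. Thinning put Sirt5 region 1 at 0.093. The sum of Kmt2e was at -0.055 with regions within 10 kb only. With a reciprocal overlap of 50% the peak lists gave 68 regions in both, 195 with Nanog alone and 1 without. For these differences the cause was not tested.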
